A study of Mus musculus with 24 samples.

Results

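Transglutaminases and the proteins they cross-link into the cornified envelope are described here as 10 genes of the 25239 in the deposited table, namely the enzymes Tgm1, Tgm2, Tgm3 and Tgm7 and the precursors and associated proteins Ivl, Cnfn, Krtdap, Evpl, Ppl and Scel. The genes were chosen by name with results of these data known, so their differences in the 3 comparisons named below are descriptions: a gene is marked as called or not by the fit across all genes, its p-value is not printed, and the calls are not tests of the choice. RNA was measured in 24 cultures of tracheal epithelial cells from wild-type FVB/NJ mice of 7 to 8 weeks, each grown on an insert and differentiated with its upper face in air for 10 to 14 days. Every culture was then kept for 10 days under cigarette smoke, with 2 cigarettes burned over about 8 minutes per exposure, or under humidified air. The 4 groups of 6 inserts were female smoke, female air, male smoke and male air. Inserts of 1 sex are not tied to separate animals by the labels, so p-values measure the spread between inserts, and the sex of the donors and the cell preparation cannot be told apart.

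The cornified envelope is a shell of cross-linked protein under the membrane of stratified squamous cells such as those of the skin. Transglutaminases are calcium-dependent enzymes that build it by joining glutamine and lysine residues of its precursors. Envoplakin and periplakin, made from Evpl and Ppl, form an early scaffold together with involucrin, made from Ivl, and other proteins are added later. A tracheal epithelium is normally pseudostratified, and squamous metaplasia, in which envelope genes are switched on, is a known response of airways to injury and to smoke.

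Upstream sequences of members are shown because they let members be compared for the same short motifs. RefSeq promoters on GRCm38.p6 matched 7 of the 10 genes and gave 8 promoters, since Tgm1 has more than 1 listed start; Tgm2, Evpl and Ppl were not matched. The 250 bases before the start are printed on the gene's own strand for Ivl (chr3:92573736-92573985, minus strand), Krtdap (chr7:30787655-30787904, plus strand), Scel (chr14:103513091-103513340, plus strand), Cnfn (chr7:25369725-25369974, minus strand) and Tgm1 (chr14:55713493-55713742, minus strand). Capitals mark matches to the motifs described in the next paragraph.
Ivl: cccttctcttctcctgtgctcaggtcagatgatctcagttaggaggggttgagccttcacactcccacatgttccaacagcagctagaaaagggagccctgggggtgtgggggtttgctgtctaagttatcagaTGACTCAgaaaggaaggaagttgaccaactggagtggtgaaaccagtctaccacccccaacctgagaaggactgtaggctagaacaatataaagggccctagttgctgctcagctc
Krtdap: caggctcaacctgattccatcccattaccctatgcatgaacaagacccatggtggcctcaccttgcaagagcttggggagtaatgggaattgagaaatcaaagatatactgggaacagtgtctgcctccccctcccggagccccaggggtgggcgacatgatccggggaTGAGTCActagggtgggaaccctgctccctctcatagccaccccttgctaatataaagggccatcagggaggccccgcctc
Scel: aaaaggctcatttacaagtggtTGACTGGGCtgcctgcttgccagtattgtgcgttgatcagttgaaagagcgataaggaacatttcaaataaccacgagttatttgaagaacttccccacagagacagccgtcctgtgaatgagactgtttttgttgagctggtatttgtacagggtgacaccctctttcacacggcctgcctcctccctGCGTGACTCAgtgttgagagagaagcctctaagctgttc
Cnfn: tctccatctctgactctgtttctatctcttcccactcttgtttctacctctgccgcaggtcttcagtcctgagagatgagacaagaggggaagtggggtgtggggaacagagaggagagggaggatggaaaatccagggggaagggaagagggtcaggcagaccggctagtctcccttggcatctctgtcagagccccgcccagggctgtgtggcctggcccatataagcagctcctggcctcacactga
Tgm1: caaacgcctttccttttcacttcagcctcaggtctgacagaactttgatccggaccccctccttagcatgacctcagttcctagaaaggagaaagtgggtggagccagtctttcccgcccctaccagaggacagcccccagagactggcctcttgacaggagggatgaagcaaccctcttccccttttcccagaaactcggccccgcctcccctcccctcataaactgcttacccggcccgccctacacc

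The AP-1 motif TGAGTCA, searched on both strands, lay in 3 of the 8 member promoters, against 4.46% of the 32851 mouse promoters of the same length. AP-1 factors are dimers of Fos and Jun proteins and are known regulators of involucrin in human keratinocytes. In Ivl the match was 116 to 110 bases before the start on the opposite strand, in Krtdap 81 to 75 bases before it on the gene strand, and in Scel 36 to 30 bases before it on the opposite strand. GCGTG, the core bound by the aryl hydrocarbon receptor, was in 1 of the 8 promoters, that of Scel, at 39 to 35 bases before the start where it overlaps the AP-1 match; it occurred in 28.2% of all promoters. TGACNNNGC, an NRF2-type motif, was also found in Scel alone, 228 to 220 bases before the start, and in 10.2% of all promoters. The grainyhead-like motif AACCGGTT was in none of the 8 and in 0.116% of all promoters. These matches are letters in a window and say nothing of binding. The promoters of Cnfn and Tgm1, whose transcripts rose with smoke in both sexes, held none of the 4 motifs. The members with an AP-1 match did not move together in the fit described below. Ivl was called with smoke in male cultures only, Krtdap in female cultures only and Scel in neither.

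Differences were tested for the 13549 genes whose normalised count averaged at least 10, using 1 limma fit on log2 of the count plus 1. Genes count as called where the adjusted p, by the Benjamini-Hochberg method, is under 0.05. All 10 members passed that filter on low values. With smoke in female cultures 4 members rose (Tgm1, Cnfn, Krtdap and Ppl) and 1 fell (Tgm7), where 15.5% of all tested genes were called higher and 19.3% lower. With smoke in male cultures 4 rose (Tgm1, Tgm3, Ivl and Cnfn) and 1 fell (Tgm2), where 9.76% of all genes were called higher and 12.2% lower. In female air against male air 6 were higher (Tgm1, Tgm3, Tgm7, Cnfn, Evpl and Scel) and none lower by limma, with 1 lower at an unadjusted p under 0.05 and none by edgeR or DESeq2, where 20.0% of all genes were called higher and 19.0% lower. Median log2 differences over the members were 0.53 for female smoke against air, 0.25 for male smoke against air and 1.37 for female against male air, beside 0.00, -0.01 and 0.02 over all tested genes. The authors made the same comparisons, each on the 12 libraries of its own groups. In the authors' deposited table for female cultures Ivl and Evpl pass an adjusted p of 0.05 besides the 5 called here, while the table for male cultures passes the same 5 members as here. The authors' deposited table for air passes Tgm2, as lower in female, and Ppl, as higher in female, besides the 6 called here.

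Separation of single inserts gave a partly different set. All 6 smoke inserts lay above all 6 air inserts for 2 members in female cultures, Tgm1 and Cnfn, where 6.73% of all tested genes lay above in this way and 5.75% below. In male cultures 3 members lay above, Tgm1, Ivl and Cnfn, and 1 lay below, Tgm2, beside 11.0% and 14.2% of all genes. Between female and male air, 5 members lay above, Tgm1, Tgm3, Tgm7, Cnfn and Evpl, and 1 below, Tgm2, beside 16.6% and 16.7% of all genes.

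**Figure D1:**
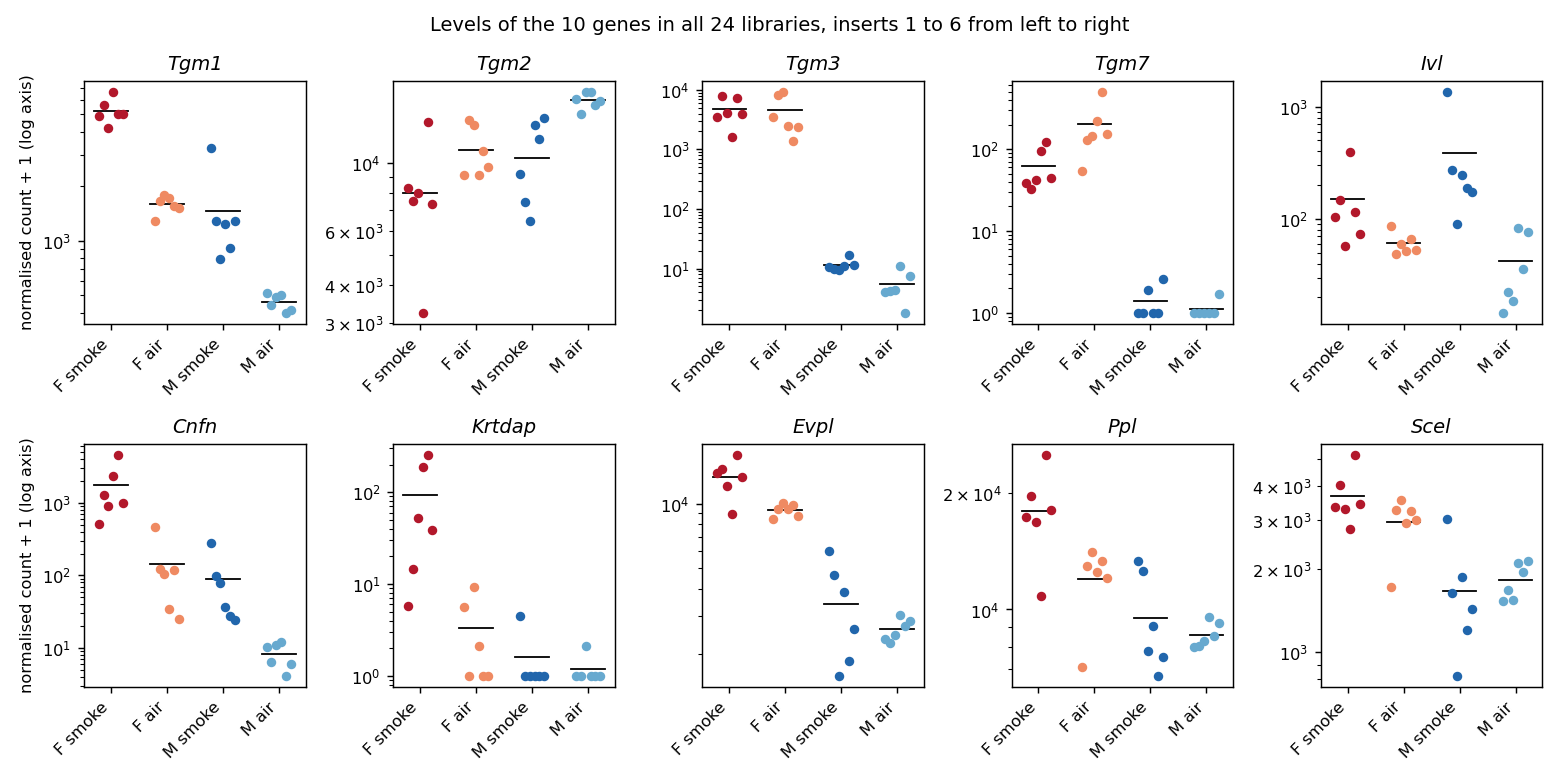
Normalised counts plus 1 on log axes for the 10 genes, with 1 point per library ordered by insert number within each group and a line at the group mean (n = 6). Tgm1 and Cnfn show smoke inserts above air inserts of the same sex throughout, Tgm3 and Tgm7 show a female and a male level far apart, and Krtdap is above 10 in 5 of the 6 female smoke inserts only.

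Tgm1, the membrane-anchored transglutaminase of keratinocytes that also attaches lipid to the envelope and is mutated in human lamellar ichthyosis, rose with smoke in both sexes. Its gene lies on chromosome 14 at 55700009 to 55713492 of mm10. The lowest, median and highest normalised counts were 4215, 5035 and 6650.3 in female smoke, against 1283, 1609 and 1784 in female air. In male smoke they were 789.5, 1264 and 3262, against 397.3, 465.1 and 512.7 in male air. Neither pair of groups overlapped, and the male smoke range was widened by insert 1, which stood at 3262 where the next insert was at 1294. The fitted log2 difference was 1.72 ± 0.22 (SE, n = 6 each) for female smoke against air, 1.51 ± 0.22 for male smoke against air and 1.79 ± 0.22 for female against male air. Tgm1 was called in all 38 alternative settings of each of these comparisons. Apart from insert 1, male smoke cultures ran from 789.5 to 1294, where female air ran from 1283 to 1784.

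Tgm2, the widely expressed tissue transglutaminase that also binds GTP, moved the other way. Its counts ran from 3227 through a median of 7734 to 13628 in female smoke, against 9106, 10324 and 13832 in female air. In male smoke they ran 6475, 10589.7 and 13984, against 14459, 16109 and 17041 in male air. Every male smoke insert was below every male air insert, whereas the female groups overlapped because insert 5 of female smoke was the highest of its group. The log2 difference was -0.68 ± 0.24 (SE) in male cultures, called, and -0.56 ± 0.24 in female cultures and -0.56 ± 0.24 between female and male air, both not called. Without female smoke insert 5 the female difference was -0.73 and called, and without female smoke insert 4 it was -0.32. The male call was lost in 14 of 38 alternatives, among them edgeR on whole reads, and with inserts 4 to 6 alone the difference was -0.31. Air cultures did not overlap between the sexes, and that difference was called in 6 of 38 alternatives.

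Tgm3, an enzyme made as an inactive precursor that is cut by a protease and is known from epidermis and hair follicle, was set apart by the origin of the cultures more than by smoke. Female smoke cultures had 1646 at the lowest, 3994 at the median and 7795 at the highest insert, against 1396, 2974 and 9173 in female air. In male smoke the counts were 8.31, 9.85 and 15.8, against 0.788, 3.27 and 10.1 in male air. The lowest female library of either exposure, at 1396, stood far above the highest male one, at 15.8, and the log2 difference in air was 9.56 ± 0.45 (SE). It was 10.57 with inserts 1 to 3 alone and 8.55 with inserts 4 to 6 alone, since female air inserts 1 to 3 ran from 3519 to 9173 and inserts 4 to 6 from 1396 to 2429. With smoke the female difference was 0.22 ± 0.45, not called. The male difference of 1.25 ± 0.45 was called but rests on 53 reads in 5 male smoke libraries and 28 reads in 6 male air libraries, and the call was lost in 22 of 38 alternatives, edgeR and DESeq2 among them. Tgm3 lies on chromosome 2 at 130012340 to 130050399 of mm10, where the annotation places Mir6339 within it on the other strand.

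Tgm7, a family member whose substrates are little known, was found almost wholly in female cultures and fell there with smoke. Its counts were 31.3, 42.1 and 120.9 in female smoke, against 53.2, 149.7 and 496.5 in female air. The groups overlapped at female smoke inserts 4 and 5 and at female air insert 1. The log2 difference was -1.56 ± 0.43 (SE), and with inserts 1 to 3 alone it was -1.43 and no longer called. Male smoke libraries had reads in 2 inserts, at most 1.62 normalised counts, and male air libraries in 1 insert, at 0.731. As reads, 1199 in female air against 1 in male air gave a ratio of 1351 with a 95% counting interval of 242 to 53408, and 340 in female smoke against 3 in male smoke gave 111 with an interval of 37.6 to 540. Such intervals cover counting error only.

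Female libraries also carried more Tgm5, the neighbour of Tgm7 on chromosome 2 and an epidermal transglutaminase mutated in human acral peeling skin syndrome. Its counts averaged 257.5 ± 20.3 in female smoke and 277.5 ± 124 in female air, and 21.9 ± 13.3 in male smoke and 14.0 ± 6.14 in male air (SD, n = 6 each). The log2 difference was 0.02 ± 0.36 (SE) with smoke in female cultures and 0.50 ± 0.36 in male cultures, neither called, and 4.19 ± 0.36 between female and male air, called. Of the 5 other family members in the table, Tgm5 alone passed the filter on low values. Tgm4, known from the prostate, averaged between 6.91 and 9.92 normalised counts in the 4 groups, and Tgm6, F13a1 and Epb42 had at most 7 reads in any group. Tgm2, Tgm3, Tgm5, Tgm6, Tgm7 and Epb42 all lie on chromosome 2, in places that include a stretch where Epb42, Tgm5 and Tgm7 follow one another.

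Per kilobase of exon, the order of the enzymes differed between the cultures. In female smoke Tgm2 had 2251 ± 937 normalised counts per kilobase, Tgm1 1746 ± 275, Tgm3 1133 ± 568, Tgm5 98.3, Tgm7 28.9 and Tgm4 2.50 (SD, n = 6). In female air the order was Tgm2 at 3099 ± 592, Tgm3 at 1088 ± 801, Tgm1 at 529.0 ± 60.1, Tgm5 at 106, Tgm7 at 94.2 and Tgm4 at 3.23 per kilobase. Tgm2 beside Tgm1 in female smoke, and Tgm3 beside Tgm1 and Tgm5 beside Tgm7 in female air, differed by less than the larger SD of the pair. The same held for Tgm5 beside Tgm4 in male smoke and male air and for Tgm4 beside Tgm3 in male smoke, whose values follow. Male smoke cultures had Tgm2 at 2929 ± 885, Tgm1 at 487 ± 302, Tgm5 at 8.34, Tgm4 at 3.26, Tgm3 at 2.54 and Tgm7 at 0.200 per kilobase. Male air cultures had Tgm2 at 4518 ± 276, Tgm1 at 153 ± 16.4, Tgm5 at 5.33, Tgm4 at 3.58, Tgm3 at 1.09 and Tgm7 at 0.0574 per kilobase. Tgm2 was first in all 4 groups, and Tgm1 was second in all but female air.

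**Figure D2:**
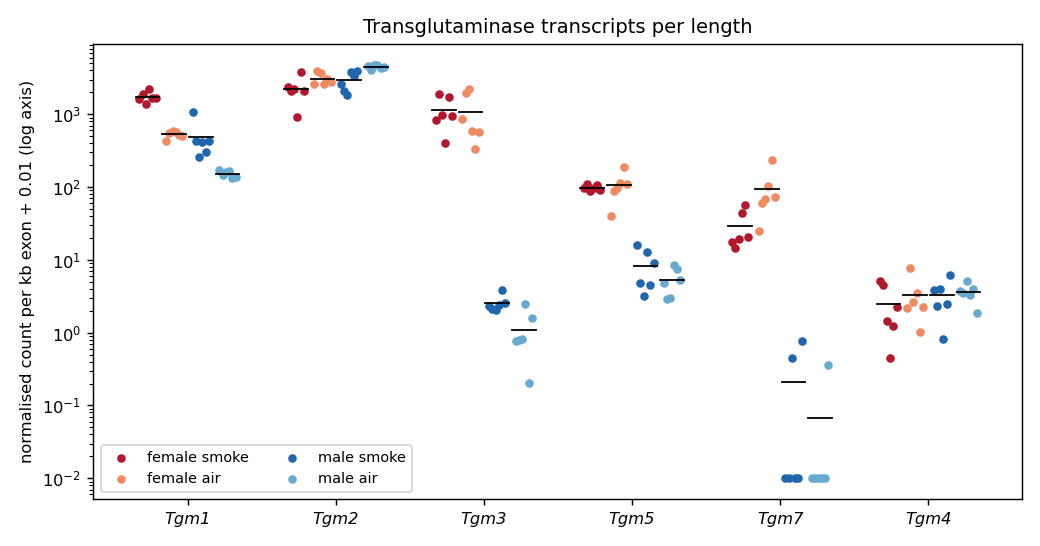
Normalised counts per kilobase of exon, plus 0.01, on a log axis for 6 transglutaminases, with 1 point per library and a line at the group mean (n = 6 per group). Tgm3 has group means of 1133 and 1088 in female smoke and female air beside 2.54 and 1.09 in male smoke and male air. Group means of Tgm2 run from 2251 in female smoke to 4518 in male air.

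Ivl, which encodes involucrin, a glutamine-rich early substrate of the transglutaminases, rose with smoke in male cultures. Its counts were 88.6, 215.5 and 1348 at the lowest, median and highest insert of male smoke, against 13.5, 28.1 and 82.1 in male air. In female smoke they were 56.7, 108.8 and 395.6, against 47.7, 55.5 and 85.2 in female air. Male groups did not overlap, and female groups did. The log2 difference was 2.92 ± 0.54 (SE) in male cultures, called, and 1.001 ± 0.54 in female cultures and 0.85 ± 0.54 between female and male air, both not called. Male insert 1 held 1348 where the next insert had 271.0, and without it the male difference was 2.44; with inserts 1 to 3 alone it was 4.13, and with inserts 4 to 6 alone 1.71 and no longer called. Male air itself ran 13.5 to 21.5 in inserts 1 to 3 and 34.7 to 82.1 in inserts 4 to 6, so the difference between female and male air was 1.79 in inserts 1 to 3 and -0.10 in inserts 4 to 6.

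Cnfn, which encodes cornifelin, a small envelope component, rose in both sexes. It had 504.4, 1123 and 4582 normalised counts in female smoke, against 24.4, 110.2 and 468.6 in female air. Male smoke cultures had 23.5, 56.1 and 277.4, against 3.15, 7.34 and 11.2 in male air. All smoke inserts stood above all air inserts of the same sex, although the highest female air insert, number 1 at 468.6, came close to the lowest female smoke insert, number 1 at 504.4. The log2 difference was 3.87 ± 0.65 (SE) with smoke in female cultures, 2.97 ± 0.65 in male cultures and 3.57 ± 0.65 between female and male air, all called. In female cultures it was 2.20 with inserts 1 to 3 alone and 5.53 with inserts 4 to 6 alone, and in male cultures 3.84 with inserts 1 to 3 alone and 2.11 with inserts 4 to 6 alone; the smaller value of each pair was no longer called.

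Krtdap, which encodes a small secreted protein of differentiating keratinocytes and rose with smoke in female cultures, was close to 0 elsewhere. Its counts there were 4.70, 13.6, 51.1, 186, 254 and 37.3 in inserts 1 to 6, against 4.56, 0, 8.19, 1.09, 0 and 0 in female air. Male smoke libraries had it in insert 1 only, at 3.53 counts, and male air libraries in insert 3 only, at 1.10 counts. The female log2 difference was 4.36 ± 0.76 (SE), called; it was 2.13 and not called with inserts 1 to 3 alone, 6.58 with inserts 4 to 6 alone, and 2.96 with a pseudocount of 5. In male cultures 4 reads under smoke against 1 under air gave a ratio of 4.51 with a 95% counting interval of 0.446 to 222, so no difference was detectable at this depth. Female air had 13 reads against 1 in male air, a ratio of 14.6 with an interval of 2.20 to 622. These intervals cover counting error only, not the spread between inserts. By the fit, the difference between female and male air was 0.94 ± 0.76 (SE) on the log2 scale, not called, and the inserts overlapped.

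Evpl and Ppl encode plakins that tie the envelope to desmosomes and keratin filaments, and both were abundant. Evpl had 8945, 13558 and 16842 normalised counts in female smoke, against 8471, 9429 and 10074 in female air. In male smoke it had 1584, 3237 and 6010.4, against 2239, 2582 and 3022 in male air. Smoke and air overlapped in both sexes, whereas every female air insert lay above every male air insert. The log2 difference of Evpl was 0.48 ± 0.23 (SE) in female cultures and 0.24 ± 0.23 in male cultures, neither called, and 1.85 ± 0.23 between female and male air, called.

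Ppl rose with smoke in female cultures by a log2 difference of 0.58 ± 0.19 (SE). Its counts were 10867, 17770.3 and 25171 in female smoke, against 7100.4, 12738 and 14069 in female air. Female smoke insert 4, at 10867, was inside the air range, and the call was lost in 6 of 38 alternatives, one of them a fit without female smoke insert 5. Ppl had 6731, 8446 and 13352 in male smoke, against 7973, 8411 and 9568 in male air, a log2 difference of 0.10 ± 0.19, not called. Between female and male air it differed by 0.45 ± 0.19, not called there but called in 6 of 38 alternatives, including those without female air insert 1, its lowest insert.

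Scel encodes sciellin, a repeat-rich precursor cross-linked into the envelope of stratified epithelia. Its counts were 2783, 3390.3 and 5172 in female smoke, against 1715, 3120 and 3536 in female air, a log2 difference of 0.33 ± 0.23 (SE) that was not called. In male smoke they were 821.8, 1537 and 3033, against 1527, 1812 and 2136 in male air, a difference of -0.23 ± 0.23, not called. Male smoke spanned wider than male air on both sides. Female air exceeded male air by 0.67 ± 0.23, called, and the call was lost in 3 of 38 alternatives.

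**Figure D3:**
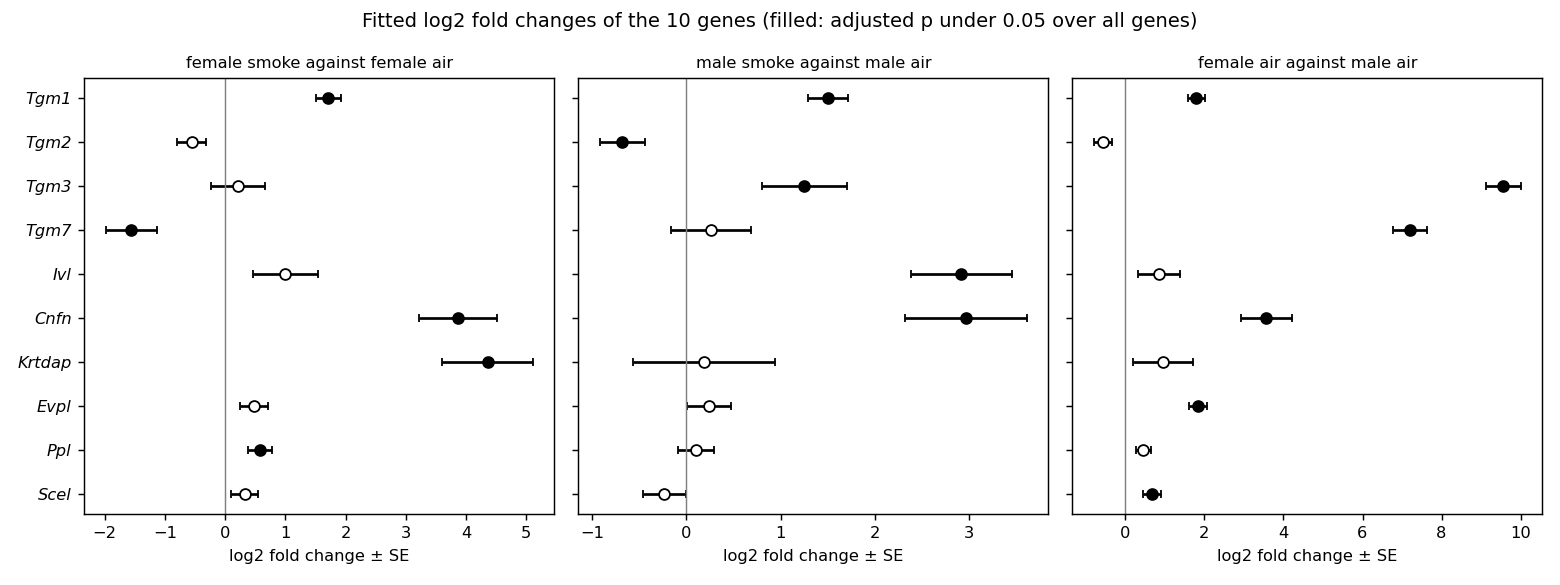
Fitted log2 differences with their standard errors for the 10 genes in female smoke against female air, male smoke against male air and female air against male air (n = 6 per group), on separate x scales, with filled points for called genes. Smoke differences reach 4.36 for Krtdap in female cultures and 2.97 for Cnfn in male cultures, while the air panel reaches 9.56 for Tgm3.

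Whether the smoke response itself differed between the sexes was tested as an interaction, the female response minus the male one. It is formed from the smoke comparisons by which the genes were followed, so it is not independent of their choice. None of the 10 members was called by limma in that test, 3 had an unadjusted p under 0.05, and none was called by edgeR or DESeq2, where 0.694% of all genes were called higher and 0.340% lower. Krtdap came nearest, at 4.17 ± 1.07 (SE) with an adjusted p of 0.0583 by limma, and was called in 8 of 36 alternatives. Without female air insert 1 and female smoke insert 4 it had 4.03 with an adjusted p of 0.0257 by limma. Without male smoke insert 1 it had 4.54 with an adjusted p of 0.0447 by limma. Krtdap averaged 91.2 counts in female smoke, beside 2.31 in female air, 0.589 in male smoke and 0.184 in male air. It passed the filter on low values through female smoke alone. Its male cultures held almost no reads, so its interaction is chiefly the female difference for which it was followed. Tgm7 had -1.82 ± 0.60 with an adjusted p of 0.158 by limma, and -2.13 with an adjusted p of 0.0339 without female air insert 1; its male cultures held almost no reads, so this is chiefly the female difference. For Ivl the interaction was -1.92 ± 0.76 with an adjusted p of 0.253, for Tgm3 -1.04 with 0.541 and for Cnfn 0.89 with 0.769, all by limma. Tgm1 had 0.21 ± 0.30 with an adjusted p of 0.852 by limma, and -0.08 by edgeR, so its responses in the 2 sexes were not told apart, with a 95% interval of the difference from -0.42 to 0.84 on the log2 scale. The remaining members, Tgm2, Evpl, Ppl and Scel, had limma interactions of 0.12, 0.24, 0.48 and 0.56 with adjusted p from 0.495 to 0.937.

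Levels of the members differed between the smoke inserts of 1 group. In male smoke insert 1 was the highest of the 6 for 7 members, Tgm1, Ivl, Cnfn, Krtdap, Evpl, Ppl and Scel, and insert 3 was the lowest for 6. In female smoke insert 5 was the highest for 7 members, Tgm2, Tgm7, Cnfn, Krtdap, Evpl, Ppl and Scel. Insert 4 was the highest for Tgm1 and Ivl and the lowest for 5 others. That library also had a trend with exon length, given below. Female smoke Krtdap spanned 54.1-fold between its lowest and highest insert and male smoke Ivl 15.2-fold, whereas female smoke Tgm1 spanned 1.58-fold. Air inserts spread as well, in female air from 1.19-fold for Evpl to 19.2-fold for Cnfn. No smoke insert is tied to an air insert, so a response of single inserts was not measured.

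**Figure D4:**
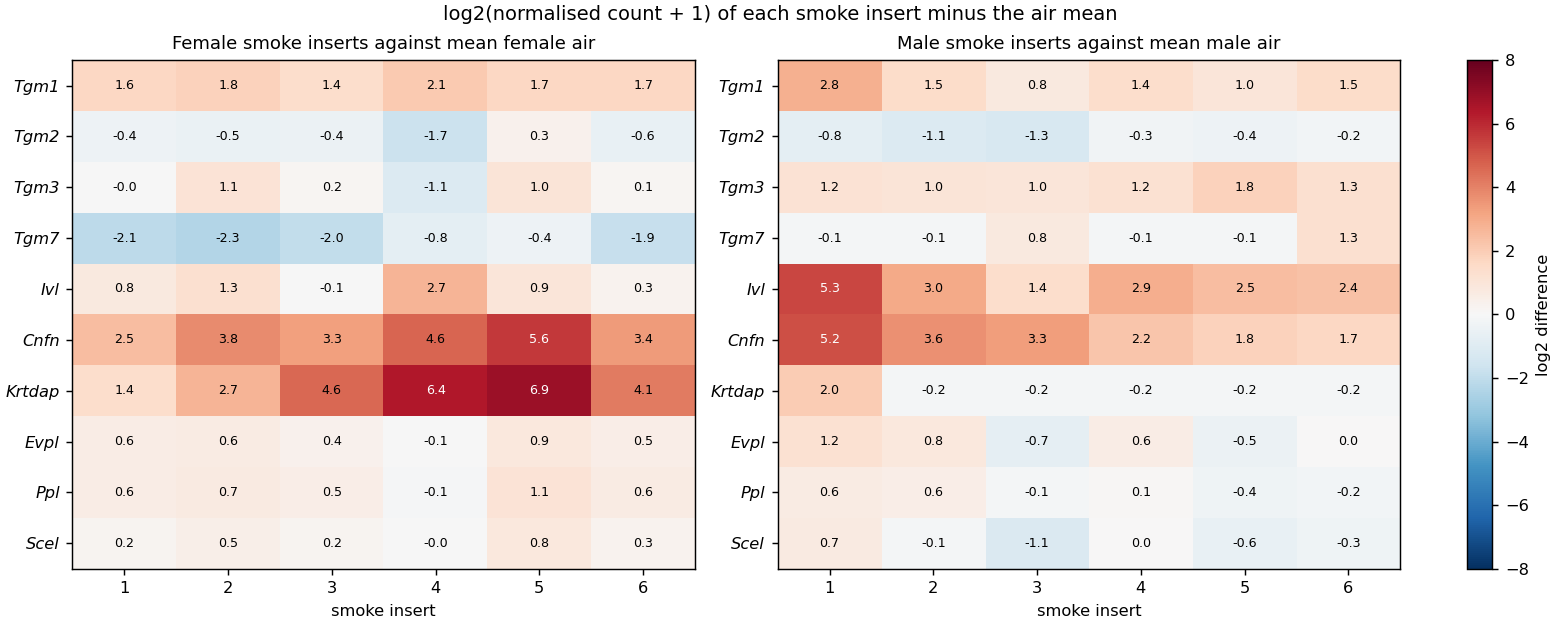
Log2 of the normalised count plus 1 in each smoke insert minus the mean of the 6 air inserts of the same sex, for the 10 genes (rows) and 6 inserts (columns). Tgm1 is positive in all 12 smoke inserts, from 1.41 to 2.07 in female and from 0.79 to 2.83 in male cultures, and male insert 1 stands out for Ivl at 5.34 and Cnfn at 5.16.

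Markers of basal, club and ciliated cells, which define a tracheal epithelium, had summed counts above 0 in every library, although the ciliated markers Dnah9 and Tekt4 were at 0 in female smoke insert 4. The 8 ciliated cell markers all fell with smoke in female cultures. Their summed counts were 103.1 to 11887 in female smoke against 11300.5 to 22402 in female air. The lowest of these sums was that of female smoke insert 4. That insert had the most Tgm1 and Ivl of its group but the least of 5 other members, and it had a trend with exon length. In male cultures none of the 8 was called by limma, by edgeR or by DESeq2, nor at an unadjusted p under 0.05, with sums of 307.4 to 4698 in male smoke against 3806 to 7130.3 in male air, and the lowest, 307.4, was that of insert 1, the insert with the most Tgm1, Ivl and Cnfn. Without female air insert 1 and female smoke insert 4, 4 of the 8 were called lower in male smoke. No male library was left out there, and 6398 of all 13549 tested genes were called for male smoke in either direction. Club cell markers fell for 4 of 5 in female cultures and 2 of 5 in male cultures, with sums of 25447 to 139087 in female smoke against 144555 to 358318 in female air and of 74328 to 254609 in male smoke against 389393 to 670013 in male air. Basal cell markers rose for 1 of 6 in female cultures (Krt5), and for 2 of 6 (Krt5 and Krt14) with 1 lower (Ngfr) in male cultures, with sums of 242938 to 403119 in female smoke against 163854 to 266798 in female air and of 119942 to 251976 in male smoke against 167844 to 211348 in male air. Goblet markers had 3 of 5 tested and none called with smoke by limma, edgeR or DESeq2, with 1 at an unadjusted p under 0.05 in female and 0 in male cultures, and 1 was higher and 1 lower between female and male air. Fibroblast markers fell for both of the 2 tested of 8 in either sex, with sums of 22.8 to 159 in female smoke against 290.2 to 1519 in female air and of 30.9 to 97.0 in male smoke against 167 to 429.6 in male air. Leukocyte markers, 4 of 8 tested, had 2 lower in female smoke (Csf1r and Lyz2) and 1 higher in male smoke (Itgam). Endothelial markers, 1 of 6 tested, had Vwf lower in female smoke, and Emcn was at 0 in all libraries. Beside these marker counts, 15.5% of all tested genes were called higher and 19.3% lower in female smoke. The shares were 9.76% and 12.2% in male smoke, and 20.0% and 19.0% in female against male air. The part of the marker shifts in the member differences was not tested. In bulk RNA fewer cells of a type and less RNA per cell cannot be told apart.

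Squamous keratins, the filament proteins of metaplastic and stratified cells, moved alongside the envelope genes. Of 7 tested, Krt6a, Krt6b and Krt16 rose and Krt1 fell in female smoke, and Krt13, Krt6a, Krt6b and Krt16 rose and Krt1 fell in male smoke. Krt6b had a log2 difference of 5.52 ± 0.44 (SE) in female cultures and 5.32 ± 0.44 in male cultures. The summed keratin counts were 401428 to 564861 in female smoke against 197616 to 372175 in female air, and 32795 to 68186 in male smoke against 16012 to 26852 in male air. Krt6a averaged 63407 counts in female smoke, Krt6b 5622.5 and Krt16 804.3. Most of the female smoke sum thus came from keratins of the list that were not called there. The highest male smoke sum, 68186, was again that of insert 1. Between female and male air Krt4, Krt13, Krt6a and Krt6b were called higher, beside 20.0% of all tested genes. With smoke, 15.5% of all tested genes rose and 19.3% fell in female cultures, and 9.76% and 12.2% in male cultures.

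Small proline-rich proteins, short bridging substrates of the transglutaminases, had 8 of 16 genes tested. All 8 rose with smoke in female cultures and 7 in male cultures, and 3 were higher in female than male air. The shares of all tested genes called higher were 15.5%, 9.76% and 20.0% in that order. Sprr2f had a log2 difference of 7.41 ± 0.45 (SE) with smoke in female and 3.63 ± 0.45 in male cultures. Its interaction was 3.78 with an adjusted p of 0.0051 by limma. Sprr2f was named for its smoke difference, so this interaction is not independent of that choice. Reads of the Sprr2 genes may be shared among near-identical copies, so single values of that family are uncertain.

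Loricrin, filaggrin and the fused S100 proteins, which fill the late envelope, had 4 of 8 genes tested. Crnn, which encodes cornulin, rose in both sexes, by 3.52 ± 0.52 (SE) on the log2 scale in female and 1.80 ± 0.52 in male cultures, and Rptn (repetin) and Tchh (trichohyalin) rose in female cultures by 2.02 ± 0.44 and 0.57 ± 0.17. In male cultures they had -0.73 ± 0.44 and -0.37 ± 0.17, not called. The interaction of Rptn was 2.75 with an adjusted p of 0.0301 by limma. Rptn was named for its call with smoke, so its interaction is not independent of that choice. Its counts were 43.8 ± 21.0 in female smoke and 9.59 ± 4.21 in female air (SD, n = 6). They were 4.92 ± 3.42 in male smoke and 7.47 ± 2.49 in male air. Lor was called higher, and Crnn lower, in female than male air, beside 20.0% and 19.0% of all tested genes. With smoke, 15.5% of all tested genes rose in female cultures and 9.76% in male cultures. Of 23 late cornified envelope genes 1 was tested, Crct1, which rose in female smoke by 3.02 ± 0.61 and was higher in female than male air by 4.95 ± 0.61.

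The list of envelope lipid and late barrier genes, most of them enzymes, had 16 of 20 genes tested. In female smoke 9 rose and 1 fell, and in male smoke 8 rose and 1 fell. Of all tested genes, 15.5% rose and 19.3% fell in female smoke, and 9.76% and 12.2% in male smoke. Abca12, which loads lipid into lamellar bodies, rose by 2.77 ± 0.48 (SE) in female and 2.75 ± 0.48 in male cultures on the log2 scale. Casp14 and Asprv1, proteases of filaggrin processing in skin, rose in both sexes. Sbsn, the suprabasin gene of the chromosome region that also holds Dmkn and Krtdap, rose by 2.33 ± 0.39 in male cultures. It had -0.11 ± 0.39 in female cultures. The interaction of Sbsn was -2.44 with an adjusted p of 0.0304 by limma, opposite in sign to that of Krtdap. Sbsn was named for its smoke difference, so its interaction is not independent of that choice. In air 9 were higher and 4 lower in female than male cultures, beside 20.0% and 19.0% of all tested genes.

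Regulators of keratinocyte differentiation, chiefly transcription factors, had 26 genes, all tested. Of these, 9 rose and 1 fell in female smoke, where 15.5% of all tested genes rose and 19.3% fell. In male smoke 6 rose and 2 fell, where 9.76% of all tested genes rose and 12.2% fell. Without female air insert 1 and female smoke insert 4 the male count of these regulators was 7 higher and 8 lower. In that setting 6398 of all 13549 tested genes were called for male smoke in either direction. Klf4, a barrier regulator, had log2 differences of 1.25 ± 0.23 (SE) in female and 1.76 ± 0.23 in male cultures, and Grhl3, which is known to activate Tgm1 in mouse epidermis, 1.33 ± 0.23 and 1.28 ± 0.23. Fosl1, an AP-1 subunit, rose by 3.25 ± 0.72 in female cultures, and had 1.66 ± 0.72, not called, in male cultures. Fosl1 was lower in female than male air, with a log2 difference of -3.90 ± 0.72. Of the 26, 14 were higher there, Grhl3, Klf4 and Prdm1 among them, beside 20.0% of all tested genes.

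The genes whose log2 levels ran most like each member over the 24 libraries are given by the root mean square difference after centring, where the libraries share the 4 groups. Slc52a3, a riboflavin transporter, was nearest to Tgm1, at 0.45, and Cysrt1, which encodes a cysteine-rich protein, was nearest to Cnfn, at 0.91. Krtdap ran nearest to Calm4, a calmodulin-like protein of skin, at 1.11, and Ivl to Xpnpep2, an aminopeptidase, at 0.78. Ppl ran nearest to Gltp at 0.18, Evpl to Mall at 0.27, and Scel to Jup, which encodes plakoglobin of desmosomes, at 0.24. Tgm3 ran nearest to Xist, the X-inactivation RNA that marks female cells, at 1.25, and Tgm7 to Hoxc6 at 0.85. Xist and Hoxc6 were higher in female than male air by 11.11 ± 0.33 and 6.16 ± 0.31 (SE) on the log2 scale. Tgm2 ran nearest to Adrb1 at 0.26. Without female air insert 1 and female smoke insert 4, Adrb1 was 39th for Tgm2 and Xpnpep2 was 4th for Ivl. Hoxc6 was then 2nd for Tgm7, behind Ly6d, and Mall was 2nd for Evpl.

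Gene counts summed to between 16038813 and 24485024 reads per library, over the 23 for which whole reads could be recovered. Across 11830 genes, deviation from the group median ran with exon length in female air insert 1 (Spearman -0.70) and female smoke insert 4 (-0.49). In the other libraries the correlation was -0.16 to 0.37. Female air insert 1 was the lowest of its group for 6 members, Tgm1, Tgm2, Tgm7, Evpl, Ppl and Scel. It was the highest for Ivl and Cnfn, whose exons sum to 1924 and 723 bases. Female smoke insert 4 was the lowest of its group for Tgm2, Tgm3, Evpl, Ppl and Scel, with exons of 3053 to 6398 bases. It was the highest for Tgm1 and Ivl, with exons of 3006 and 1924 bases. Without both libraries the same 5 members were called with smoke in female cultures. In that setting 6188 of the 13549 tested genes were called in either direction, beside 4713 with all libraries.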

How the data were processed

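The authors deposited a table of DESeq2-normalised counts, a signal of 1 column per library and 1 row per gene. Within 0.001 reads, each column held only multiples of its own step, so whole reads were recovered for 23 libraries; male smoke insert 5 had a step too close to 1 and was left out of count tests. Trimmomatic 0.38.0, FastQC 0.11.9, DESeq2, HTSeq and the builds mm10 and GRCm38 are listed in the submitters' processing notes; the aligner is not given in the sources used here, nor is strandedness. Per the file headers, 3 deposited tables give the authors' log2 fold changes with SE, a Wald statistic (a score) and p-values, whose signs were turned here to smoke over air and female over male. Positions come from the deposited refGene annotation, and promoters from RefSeq.

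Of the 25239 genes, 13549 with a mean of at least 10 were fitted with limma 3.58.1 in R 4.3.3 (eBayes, mean-variance trend, 1 term per group, log2 of the normalised count plus 1) and adjusted by the Benjamini-Hochberg method. The pseudocount understates fold changes of low genes. The member genes, the gene lists and the rule for naming genes (the members, up to 4 called genes of each list with the largest smoke difference, the other transglutaminases, and the 2 genes most alike to each member) were chosen with earlier results of these data known. Alternatives were other scalings, pseudocounts of 0.5 and 5, no filter or a mean of at least 50, a replicate block, only the groups compared, inserts 1 to 3 or 4 to 6, left-out libraries, and edgeR 4.0.16 and DESeq2 1.42.0 on recovered reads. Reads carry no molecular identifiers, so counting intervals are exact for counting error only.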

Additional observations from a re-analysis of the deposited data

Results flagged for a closer look

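In 40 sets of 6 inserts, 1 for each gene and group, 7 held an insert whose gap to the nearest other insert took up more of the whole range than Dixon's 95% limit allows, where chance flags about 1 in 20. That rate does not apply to 3 of the 7, those of Krtdap and Tgm7, since each was 1 insert with reads among inserts at 0. Tgm1 stood at 3262 normalised counts in male smoke insert 1, above the other male smoke inserts, and without that library its male smoke difference was 1.24 on the log2 scale. Krtdap had 3.53 counts in male smoke insert 1 and 1.10 in male air insert 3, with 0 in all other inserts of those groups. Tgm7 had 0.731 counts, which is 1 read, in male air insert 6 and 0 in the others. Tgm3 had 15.8 counts in male smoke insert 5, the highest of its group. Ppl at 7100.4 counts and Scel at 1715 counts were lowest in female air insert 1, the library with the strongest trend with exon length, and without it their female smoke differences were 0.43 and 0.18. Causes were not tested.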

How the results depend on the processing

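Across up to 38 alternatives per comparison, called members of the 3 pairwise comparisons kept their direction. In female smoke against air the gene count of 4713 was 2857 with only the groups compared and 656 with inserts 1 to 3 alone, where 1 member was called. In male smoke against air 2979 genes became 6148 with only the groups compared, 931 with inserts 4 to 6 alone and 6398 without female air insert 1 and female smoke insert 4, and ranged from 2110.0 to 4596 over left-out replicates. Members called there numbered 3 with library-total scaling, without a filter and by edgeR, 1 with inserts 4 to 6 alone, and 3 to 5 over left-out replicates. Between female and male air 5282 genes became 2859 with inserts 1 to 3 alone. The 140 genes of the interaction became 212 (1 member) with quantile scaling, 40 with inserts 1 to 3 alone, 637 (1 member) with inserts 4 to 6 alone, 840 (2 members) without the 2 libraries with a length trend and 506 with DESeq2, and ranged from 75 to 431 (0 to 2 members) over left-out replicates. Interactions that changed sign, none of them called, were Cnfn (-1.64) and Evpl (-0.059) with inserts 1 to 3 alone, Tgm2 (-0.22) with inserts 4 to 6 alone and over left-out replicates (-0.053 without female smoke replicate 5, to 0.363 without female smoke replicate 4), Tgm1 (-0.077), Cnfn (-0.25) and Evpl (-0.043) with edgeR, and Tgm1 (-0.062), Cnfn (-0.22) and Evpl (-0.025) with DESeq2. The cause was not tested. Krtdap gave no value with a mean of at least 50.

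The labels do not say that an insert number pairs samples, and the correlations of same-numbered deviations were not all over 0.1. They were over 0.1 for 5 of 6 pairs in female cultures (-0.21 for insert 1, up to 0.37) and for 2 of 6 in male cultures (-0.24 to 0.12), and between air cultures all 6 were positive (0.03 to 0.20) with 2 over 0.1. Of 12 libraries in each comparison 4, 1 and 3 correlated best with their own number. With insert number as a replicate block 4534, 2798, 5202 and 112 genes were called for female smoke, male smoke, air and the interaction, with 5, 3, 6 and 0 members. Without the 2 libraries with a length trend, chosen for the lists after seeing the data, 4 ciliated markers were called in male smoke. In female against male air 7 were called. Of the 13549 tested genes, 6398 and 7557 were called in these comparisons in that setting. Totals of at most 4 reads per group limit Tgm7 and Krtdap in male cultures.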
